A study of Mus musculus with 12 samples.

Results

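Liver of mice homozygous for the R135W variant of Mars2 was compared with liver of wild type mice, gene by gene, in 6 poly(A) RNA-seq libraries, chosen by their tissue label from the 12 libraries of the series. The other 6 libraries hold gastrocnemius, a calf muscle, of the same numbered animals. The 3 wild type libraries (WT) came from animals 6, 8 and 9 and the 3 libraries labelled R135W/R135W (R135W) from animals 5, 7 and 12. All animals were female C57BL/6N mice on chow, aged 9.0, 9.0 and 7.4 weeks in WT and 9.0, 7.4 and 8.6 weeks in R135W, each in the order given. Of the 24062 genes counted, 13935 had enough counts to be tested in liver. Levels are CPM, read pair counts relative to library size, with sizes scaled by the TMM method. They are given per animal throughout, as WT 6, WT 8 and WT 9 and then as R135W 5, R135W 7 and R135W 12. Fold changes are log2 values of R135W minus WT with n = 3 per group, and a gene is said to have risen or fallen only where edgeR's adjusted p was under 0.05.

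Mars2 encodes the enzyme that charges the mitochondrial transfer RNA for methionine, which mitochondria need to make the proteins encoded by their own DNA. Type I interferons are secreted signals that act through a shared receptor and a complex of transcription factors that includes IRF9, which binds an element in target promoters and switches on antiviral genes in nearly every cell type. In liver, hepatocytes make up most of the tissue, and Kupffer cells, the resident macrophages of the sinusoids, take up particles, iron and dying cells and can respond to and produce interferon.

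Counts assigned to genes ran from 20751583 to 26275128 per WT library and from 21513860 to 30460237 per R135W library. Of the tested genes 384 (2.76%) rose and 73 (0.524%) fell in R135W, 457 (3.28%) together, and these shares are the background for the counts of members below. At an unadjusted p under 0.05 stood 2449 genes (17.6%), and for 3309 genes (23.7%) the libraries of the genotypes did not overlap. The median log2 fold change over all tested genes was -0.0051. The number of calls rests on every animal: with 1 library left out it lay between 84 (without WT 9) and 285 (without WT 6), and it was 104 without WT 8, 114 without R135W 7, 263 without R135W 12 and 266 without R135W 5. The 59 genes that passed in all 6 of these fits, 58 higher and 1 lower, are called steady in the text, and they lead each group where there are any. The library of R135W 7 stood apart in ribosomal sequence. Rn45s, the ribosomal RNA precursor, was at 95105 CPM there and at 17162 to 33629 CPM in the other libraries, and Lars2, the synthetase for mitochondrial leucine transfer RNA, was at 6826 CPM against 1665 to 2647 CPM. With both genes taken out of the counts 453 genes passed.

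Mars2 itself was measured at a low level, 2.30, 2.54 and 3.48 CPM in WT and 2.65, 2.47 and 3.67 CPM in R135W (log2 fold change 0.08, SE 0.25, adjusted p = 0.9). The genotypes overlapped, and a missense change need not alter RNA level, so this does not check the labels. The gene lies on chromosome 1, 55237177 to 55240058 (mm10), in a single exon.

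Of the gene lists, antiviral effector genes had the largest median log2 fold change. Of 49 tested members of a list of 53, 36 rose and 0 fell, with a median log2 fold change of 1.34, and all 49 stood above 0. Between 14 (without WT 9) and 36 of them passed with 1 library left out, and 14 were steady. The sequences before the start sites of 7 members that rose, or of genes that act with them, show the element that the interferon-activated factors bind. Each run holds the 150 bases before the start site in RefSeq's GRCm38.p6 annotation, the assembly of mm10, read 5′ to 3′ on the gene's strand. Capitals mark matches to GAAANNGAAA, the spaced repeat of the interferon-stimulated response element. A match on the opposite strand reads as TTTCNNTTTC. Overlapping matches run together.
Isg15, chr4:156200819-156200968, minus strand: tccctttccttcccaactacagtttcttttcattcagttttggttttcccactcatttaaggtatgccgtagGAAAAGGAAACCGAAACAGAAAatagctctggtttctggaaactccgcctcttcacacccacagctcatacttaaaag
Oas1a, chr5:120907526-120907675, minus strand: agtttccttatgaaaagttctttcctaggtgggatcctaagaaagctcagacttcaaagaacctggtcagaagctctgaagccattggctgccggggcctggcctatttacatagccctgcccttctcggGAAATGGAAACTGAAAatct
Oas1g, chr5:120887614-120887763, minus strand: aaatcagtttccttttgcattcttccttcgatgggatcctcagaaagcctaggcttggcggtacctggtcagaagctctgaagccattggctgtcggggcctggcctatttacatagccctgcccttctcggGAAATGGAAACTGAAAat
Rsad2, chr12:26456453-26456602, minus strand: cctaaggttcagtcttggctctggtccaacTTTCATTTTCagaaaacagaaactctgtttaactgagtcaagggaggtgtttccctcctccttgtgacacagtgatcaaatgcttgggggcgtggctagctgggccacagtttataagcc
Bst2, chr8:71537473-71537622, minus strand: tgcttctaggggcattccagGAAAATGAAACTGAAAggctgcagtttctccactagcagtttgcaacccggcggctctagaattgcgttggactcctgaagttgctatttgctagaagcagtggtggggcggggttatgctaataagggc
Ifit1, chr19:34640739-34640888, plus strand: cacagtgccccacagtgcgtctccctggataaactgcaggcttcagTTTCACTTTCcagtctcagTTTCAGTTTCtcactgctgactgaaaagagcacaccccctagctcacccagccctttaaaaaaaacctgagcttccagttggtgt
Ifit3, chr19:34583379-34583528, plus strand: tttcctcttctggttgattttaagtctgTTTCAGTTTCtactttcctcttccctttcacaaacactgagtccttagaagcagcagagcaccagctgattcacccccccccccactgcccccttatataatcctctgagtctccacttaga

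Isg15 held 3 overlapping matches, 78 to 57 bases before its start site. In Oas1a and Oas1g a pair of overlapping matches ended 5 and 3 bases before the start site, and Bst2 held its pair 130 to 115 bases before. RefSeq's table gave 300 bases around the start site (250 before and 50 after) for 10300 of the 13935 tested genes, among them 276 of the 384 that rose and 52 of the 73 that fell. On either strand, GAAANNGAAA was found in 15.4% of the 344 promoters of genes that rose (53 promoters of 49 genes), in 3.08% of the 65 promoters of genes that fell, in 3.18% of all promoters of tested genes and in 3.44% of the whole table. By list, it was found for 17 of 28 antiviral effectors that rose and had an entry, 4 of 5 interferon-inducible GTPases and 3 of 6 nucleic acid sensors, for 2 of 10 class I genes and 0 of 4 signalling genes, and for 2 of 8 markers shared by macrophages, 1 of 17 Fc receptor and ITAM genes, 0 of 9 Kupffer cell markers and 0 of 14 actin genes of blood cells. Irf2, which fell, held it too. Genes that rose and held it without being in any list included Shisa5, Ogfr, Aoah, Pilra, Slamf8, Tlr6 and Oas1c. TTCNNNGAA, the gamma-activated sequence, was found in 9.88% of promoters of genes that rose and 7.19% of those tested. These shares describe letters in a window. They were not tested, and they show no binding.

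Of the effectors, Ifi27, an interferon-inducible gene whose product is found at mitochondrial membranes, had the smallest p of all genes tested in liver. It stood at 99.1, 88.1 and 89.9 CPM in WT and 348, 354 and 340.2 CPM in R135W (log2 fold change 1.91, SE 0.12, adjusted p = 0.000757). The spread within each genotype was small against the gap between them. It lies on chromosome 12, 103434189 to 103440245, and 9.78% of its exon length overlaps neighbouring genes, so those fragments were counted for both. Its neighbours Ifi27l2a and Ifi27l2b rose by 1.70 (SE 0.11) and 1.82 (SE 0.16), and all 3 genes were steady. The oligoadenylate synthetases make an antiviral messenger in the presence of double-stranded RNA. Oas1a stood at 5.22, 5.12 and 5.39 CPM in WT and 30.2, 58.2 and 59.5 CPM in R135W (log2 fold change 3.23, SE 0.26, adjusted p = 0.00242). The WT animals were close to each other, while R135W 5 lay below the other R135W animals and far above WT. Oas1g (chromosome 5, 120876142 to 120887598) and Oas1c (chromosome 5, 120800199 to 120812514), beside it on the chromosome, rose by 3.27 (SE 0.30) and 1.73 (SE 0.21), and Oasl1, a member of the family known as a brake on Irf7 translation, by 2.28 (SE 0.19); all were steady.

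Bst2, which encodes tetherin, a tether of budding virus at the cell surface, stood at 189, 163 and 172 CPM in WT and 399, 450.1 and 408 CPM in R135W (log2 fold change 1.26, SE 0.13, adjusted p = 0.00451) and was steady. Apol9b, of the apolipoprotein L family, rose by 1.18 (SE 0.17) and Ifitm3, which blocks virus entry from endosomes, by 0.76 (SE 0.13). Ifitm3 lay at 301, 324 and 363 CPM in WT and 519, 598 and 554 CPM in R135W, and it kept its call in 1 of the 6 fits without 1 library, against 4 for Apol9b. Ly6e, an interferon-inducible surface protein that was in no list, showed a larger difference in CPM than these, from 197, 279 and 256 CPM to 583, 914 and 784 CPM, and was steady. Not every effector passed. Ifitm2 had a log2 fold change of 0.06, Ifitm1 of 0.19 and Eif2ak2, the kinase PKR, of 0.70, each with an adjusted p above 0.05.

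**Figure D1:**
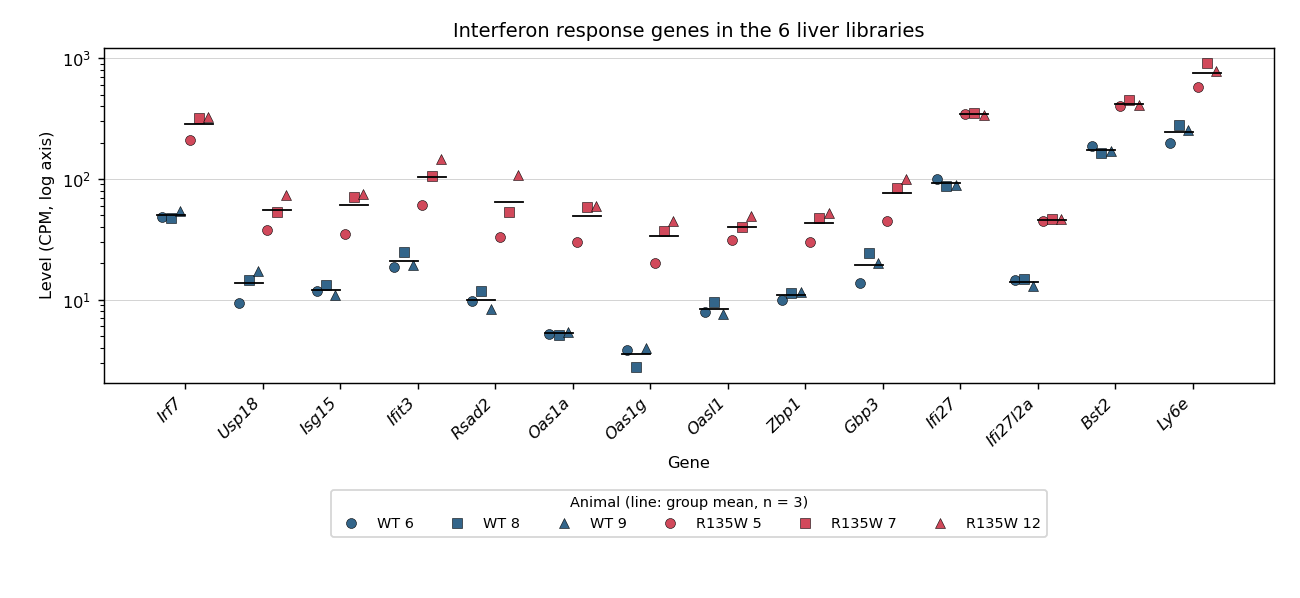
CPM on a log axis of 14 interferon response genes in each liver library, with a line at each group mean (n = 3). For every gene shown, each R135W animal lies above each WT animal. R135W 5 is the lowest R135W animal for 13 of the 14 genes, Ifi27 being the exception.

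For the ligands and receptors the picture differed. Of 22 interferon and receptor genes, 13 had no count in any liver library and 5 could be tested, and edgeR, DESeq2 and limma-voom each called 0 of them, while 2 had p under 0.05 before adjustment. The type I receptor subunit Ifnar1 stood at 39.4, 45.4 and 45.3 CPM in WT and 44.8, 46.0 and 45.4 CPM in R135W and Ifnar2 had a log2 fold change of -0.13 (adjusted p = 0.64). Ifngr2, a subunit of the receptor for interferon gamma, was nearest to the threshold at 0.42 (SE 0.11) with an adjusted p of 0.0808. Poly(A) RNA of whole tissue at this depth does not show whether interferon was made in a few cells.

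Among 20 signalling genes and brakes of the response, 6 rose and 1 fell (median 0.28). Irf7, the factor that amplifies type I interferon production, was steady and stood at 48.4, 47.8 and 54.7 CPM in WT and 210.4, 322 and 329 CPM in R135W (log2 fold change 2.51, SE 0.19, adjusted p = 0.00186; chromosome 7, 141263183 to 141266424). The genotypes did not overlap, and R135W 5 was the lowest R135W animal. Usp18, which removes ISG15 from proteins and restrains the receptor, rose by 1.99 (SE 0.28), Irf5, a factor of myeloid cells, by 0.84 (SE 0.18), Irf8, which myeloid cells need to mature, by 0.70 (SE 0.14) and Irf9, a subunit of the complex that binds the element, by 0.55 (SE 0.11). Irf2, a repressor that competes for the same element, fell from 59.8, 77.2 and 64.5 CPM to 39.9, 46.9 and 39.9 CPM (log2 fold change -0.67, SE 0.13, adjusted p = 0.0323). Irf7 alone of these was steady. The calls of Irf8 and Irf2 held in 1 of the 6 fits without 1 library, that of Irf9 in 0 and that of Usp18 in 5. Of the list, 1 (without WT 8) to 3 genes were higher and 0 to 2 lower with 1 library left out, and 2 were higher and 0 lower with age as a covariate. The kinases Jak1 and Tyk2 and the factors Stat2, Irf3 and Irf1 lay between -0.07 and 0.36, and none of them passed.

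Interferon-inducible GTPases, which attack the vacuoles of intracellular microbes, rose for 10 of 22 members (median 0.92), and between 1 (without WT 9) and 10 of them held with 1 library left out. Gbp3 stood at 13.8, 24.3 and 20.0 CPM in WT and 45.2, 84.6 and 99.9 CPM in R135W (log2 fold change 1.98, SE 0.30, adjusted p = 0.0153). Gbp10, Gbp6, Ifi47 and Irgm1 rose by 1.86 (SE 0.36), 1.57 (SE 0.29), 1.24 (SE 0.19) and 0.94 (SE 0.17). R135W 5 was the lowest R135W animal for all 10 members that rose, at a median of 0.51 times the mean of the other R135W animals. The steady member was Gvin1, at 2.10 (SE 0.27), whose exons are shared almost wholly with another gene model.

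Sensors of foreign or misplaced RNA and DNA rose for 13 of 32 members (median 0.64), of which 4 (without WT 8) to 12 held with 1 library left out. Zbp1, a sensor of left-handed nucleic acid that can start necroptosis, stood at 9.96, 11.2 and 11.5 CPM in WT and 30.3, 47.3 and 52.3 CPM in R135W (log2 fold change 1.99, SE 0.20, adjusted p = 0.00474). Dhx58, a regulator of the RNA sensors RIG-I and MDA5, rose by 1.53 (SE 0.16), the DNA-binding Mnda by 1.53 (SE 0.20), and these 3 were steady. Adar, which edits double-stranded RNA, rose from 32.6, 31.9 and 31.6 CPM to 51.2, 59.2 and 60.3 CPM and held in 5 of the 6 fits. Ddx58, which encodes RIG-I, rose by 0.85 (SE 0.16). Ifih1, which encodes MDA5, had 1.04 (SE 0.24) without passing (adjusted p = 0.0554). The adaptor Mavs, on the mitochondrial outer membrane, had 0.07, the DNA sensor cGAS, listed as Mb21d1, 0.64 and its adaptor STING, listed as Tmem173, 0.63, none past the test. The list of genes that control mitochondrial nucleic acids had 0 of 32 past the test in edgeR, DESeq2 and limma-voom, a median of -0.08 and 6 members whose p was under 0.05 before adjustment.

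The ISG15 system couples a ubiquitin-like protein to targets. Isg15 stood at 11.8, 13.2 and 10.8 CPM in WT and 35.3, 71.0 and 75.3 CPM in R135W (log2 fold change 2.34, SE 0.27, adjusted p = 0.00671; chromosome 4, 156199424 to 156200818) and was steady. Its activating enzyme Uba7 and conjugating enzyme Ube2l6 rose by 1.03 (SE 0.14) and 0.85 (SE 0.15). The call of Uba7 held in 5 of the 6 fits without 1 library, and that of Ube2l6 in 1 and not with age as a covariate. In the list of 21 tested genes that adds ADP-ribosyl transferases, 7 rose (median 0.65), among them Parp14 at 1.01 (SE 0.17) and Parp11 at 0.93 (SE 0.19). With 1 library left out 3 (without WT 8) to 8 members passed.

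Class I antigen presentation rose for 17 of 32 genes (median 0.88), with 6 (without R135W 7) to 13 past the test when 1 library was left out. H2-Q4, a class Ib molecule, stood at 63.4, 78.9 and 66.6 CPM in WT and 135.4, 147 and 136 CPM in R135W (log2 fold change 1.0, SE 0.12, adjusted p = 0.0082) and H2-Q5 rose by 1.41 (SE 0.16). H2-Q6 rose by 1.64 (SE 0.15) and H2-Q7 by 1.37 (SE 0.13), but H2-Q8 and H2-Q9 had the same counts as H2-Q6 and H2-Q7 because they share exons, so these are 2 measurements of 4 genes. H2-D1, a classical class I molecule, had the largest CPM difference of the named genes that rose, from 652, 661 and 765 CPM to 1235, 1305 and 1339.7 CPM, with 61.1% of its exon length shared with H2-L. The peptide transporter gene Tap1 and the immunoproteasome subunit Psmb8 rose by 1.17 (SE 0.20) and 1.01 (SE 0.15). B2m, the light chain that every class I molecule needs, stood at 1639.6, 1969 and 1406 CPM in WT and 1966, 2185 and 1579 CPM in R135W, overlapping between genotypes, and H2-K1 had 0.52 (SE 0.14) with an adjusted p of 0.0969.

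Macrophage genes rose in the same livers. Of 18 markers shared by macrophages 13 rose (median 1.09), and of 15 Kupffer cell markers 10 rose (median 0.91). With 1 library left out 6 (without R135W 7) to 12 and 4 (without WT 8) to 7 of them passed. In whole tissue, more cells of a type and more RNA per cell cannot be told apart. Clec4f, a lectin found on Kupffer cells in mouse liver, stood at 141, 88.4 and 153 CPM in WT and 235, 254 and 221 CPM in R135W (log2 fold change 0.89, SE 0.20, adjusted p = 0.0495). Cd5l, secreted by tissue macrophages, stood at 79.5, 56.7 and 91.5 CPM in WT and 186, 232 and 217 CPM in R135W and Marco, a scavenger receptor for bacteria and particles, at 5.12, 4.13 and 8.46 CPM in WT and 25.8, 28.6 and 23.3 CPM in R135W, with log2 fold changes of 1.48 (SE 0.18) and 2.12 (SE 0.24). For Clec4f, Cd5l and Marco the genotypes did not overlap. Vsig4, the complement receptor of Kupffer cells, rose by 0.85 (SE 0.13), Timd4, which binds dying cells, by 0.96 (SE 0.20), Spic, the factor of iron-handling macrophages, by 1.38 (SE 0.22) and Hmox1, which breaks down haem, by 1.10 (SE 0.13).

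Emr1, which encodes F4/80, stood at 10.6, 8.20 and 12.2 CPM in WT and 26.6, 29.0 and 34.0 CPM in R135W (log2 fold change 1.53, SE 0.17, adjusted p = 0.00671), and Cd68, of macrophage lysosomes, at 8.95, 6.56 and 8.95 CPM in WT and 19.5, 18.6 and 18.7 CPM in R135W (log2 fold change 1.21, SE 0.15, adjusted p = 0.0082); Cd5l, Marco, Hmox1, Emr1 and Cd68 were steady. Csf1r, the receptor for the growth factor that macrophages live on, rose by 0.96 (SE 0.17), and C1qa, C1qb and C1qc, the subunits that start the classical complement cascade, by 1.08, 1.12 and 1.09. Some markers of the same cells did not pass. Cd163, the haemoglobin receptor, had -0.46, the iron exporter Slc40a1 0.31, the sterol receptor Nr1h3 0.07, the dying-cell receptor Mertk -0.14 and the class II chain Cd74 -0.00. Mertk stood at 31.6, 30.9 and 32.5 CPM in WT and 27.8, 27.6 and 30.8 CPM in R135W. Its log2 fold change was negative while Axl, a receptor of the same kinase family for the same ligands and a gene in no list, stood at 25.2, 20.7 and 27.3 CPM in WT and 49.3, 54.7 and 53.1 CPM in R135W (log2 fold change 1.10, SE 0.13, adjusted p = 0.00693) and was steady.

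**Figure D2:**
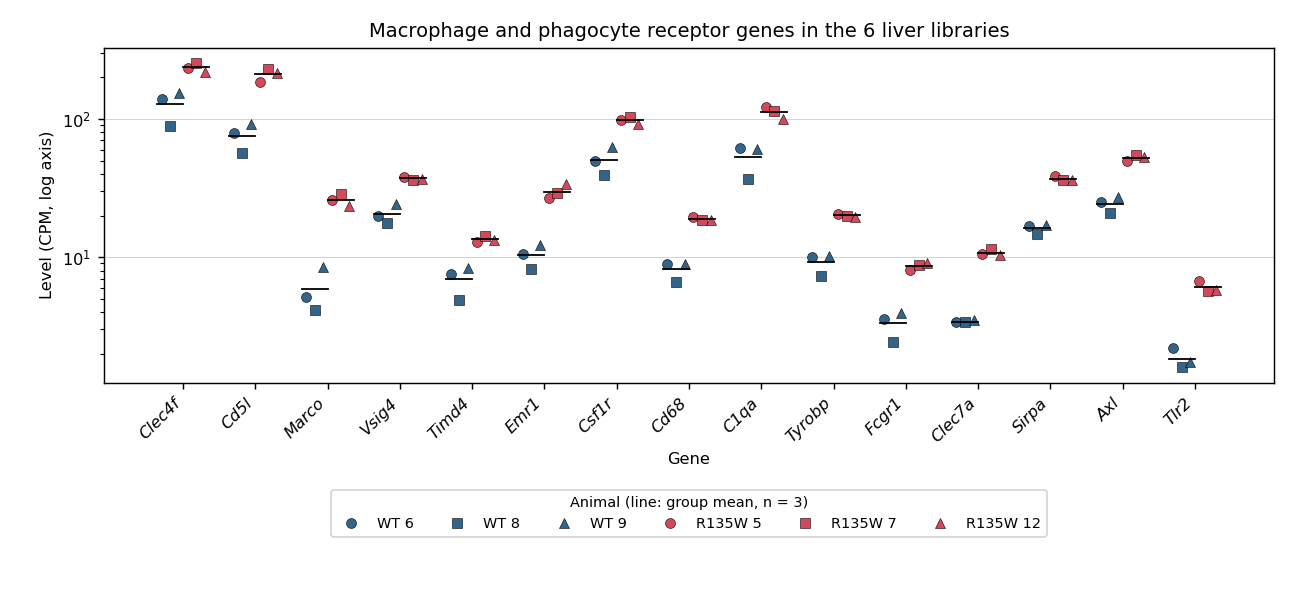
CPM on a log axis of 15 macrophage and phagocyte receptor genes in each liver library, with a line at each group mean (n = 3). For every gene shown, each R135W animal lies above each WT animal, and WT 8 is the lowest WT animal for all 15.

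Genes for the receptors and kinases by which phagocytes read antibody and other ligands rose for 22 of 30 tested members of a list of 34 (median 1.01), with 9 (without WT 8) to 15 past the test when 1 library was left out. Clec7a, which encodes the fungal receptor dectin-1, stood at 3.40, 3.38 and 3.48 CPM in WT and 10.6, 11.4 and 10.3 CPM in R135W (log2 fold change 1.65, SE 0.14, adjusted p = 0.00265), with no overlap and little spread in either genotype. Clec12a, an inhibitory lectin, rose by 1.35 (SE 0.15), Sirpa, which receives the signal not to engulf, by 1.19 (SE 0.11), Fcgr1, the high affinity receptor for immunoglobulin G, by 1.37 (SE 0.20), the adaptor Tyrobp by 1.12 (SE 0.15) and the kinase Syk by 1.0 (SE 0.14); all 6 were steady. Fcgr2b, an inhibitory receptor that liver endothelium also makes, had -0.13 (adjusted p = 0.766). Actin regulators of blood cells rose for 20 of 33 (median 0.93), among them Rac2 at 1.12 (SE 0.14), Hcls1 at 0.94 (SE 0.12) and Evl at 1.09 (SE 0.14), all steady, and Plek at 1.49 (SE 0.19). Of these 20, 5 (without WT 8) to 16 held with 1 library left out. Lysosome and phagosome genes rose for 13 of 37 (median 0.42), with 4 (without WT 9) to 11 past the test when 1 library was left out. Ctss, a protease that trims antigen chains, stood at 32.3, 28.7 and 38.9 CPM in WT and 66.2, 64.5 and 68.4 CPM in R135W (log2 fold change 0.99, SE 0.13, adjusted p = 0.00913), and Cybb, the core of the oxidase that makes superoxide in phagosomes, rose by 1.19 (SE 0.15). Lysosomal genes that most cells make, such as Lamp1 at 0.13, were among those that did not pass.

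Markers of other cells were read in the same way. Of 15 tested markers of recruited monocytes and their macrophages 5 rose (median 0.89), among them Ly6c2, from 0.527, 0.497 and 0.405 CPM to 1.55, 2.23 and 2.23 CPM, and Itgax at 1.5 (SE 0.26); between 0 (without WT 9) and 3 held with 1 library left out. For Fn1 and S100a6 of that list the values were -0.09 and 0.13. Natural killer markers rose for 2 of 10, Gzmb and Klrk1, B cell markers for 2 of 13, Bank1 and Cd22, and plasmacytoid dendritic cell markers for 3 of 7, Bst2, Irf8 and Lair1, of which the first belongs to the antiviral list and Irf8 to the signalling list. The natural killer calls were 0 in each of the 6 fits without 1 library, the B cell calls 0 to 2 and the plasmacytoid calls 1 to 2, and with age as a covariate 0, 1 and 1 passed. The lists of neutrophil (7 tested), T cell (12), conventional dendritic cell (15), endothelial (24), cholangiocyte (9) and red cell (10) markers had 0 members past edgeR's test, and 4, 6, 6, 3, 0 and 0 members had p under 0.05 before adjustment. DESeq2 called 3 neutrophil markers and 0 of the others, and limma-voom 0. The hepatocyte markers had 0 of 16 past the test in edgeR and limma-voom, 1 lower in DESeq2, 3 with p under 0.05 before adjustment and a median of -0.28. Albumin stood at 67136, 68849 and 66661 CPM in WT and 53193, 55769 and 58576 CPM in R135W and did not overlap between genotypes, with an adjusted p of 0.5. The hepatocyte markers summed to between 110145 and 114242 CPM per WT library and between 87989 and 97527 CPM per R135W library. Albumin made up most of each of these sums. The macrophage markers summed to between 534 and 711 CPM in WT and between 986 and 1092 CPM in R135W. The part of macrophage content in the rises of the interferon lists was not tested; beside it, 32 of the 49 tested antiviral effectors had a log2 fold change above the macrophage median of 1.09 and 20 above its largest member, Mpeg1 at 1.53. In the other interferon lists fewer members lay above that median, 9 of 22 GTPases, 9 of 32 sensors, 3 of 21 genes of the ISG15 list and 7 of 32 class I genes, and the medians of these lists lay below it.

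The animals did not order alike in these groups. R135W 5 was the lowest R135W animal for 32 of the 36 antiviral effectors that rose, 12 of the 13 sensors and 13 of the 17 class I genes, but for 4 of the 13 macrophage markers, 3 of the 10 Kupffer cell markers, 9 of the 22 Fc receptor and ITAM genes and 8 of the 20 actin genes. Its level over the mean of the other R135W animals had a median of 0.75 for the antiviral effectors, 0.92 for class I, 1.0 for macrophage markers and 0.97 for Kupffer cell markers. In WT the order was another one. WT 8 was the lowest WT animal for 12 of the 13 macrophage and 7 of the 10 Kupffer cell markers that rose (median ratio to the other WT animals 0.72 and 0.71), and for 0 of the 10 GTPases (1.39). Over all 384 genes that rose, R135W 5 was the lowest R135W animal for 213. Outside the interferon lists, it was also the lowest for 7 of the 8 replication and mitosis genes that rose. Their median was 0.67 times the mean of the other R135W animals. In the signalling list R135W 5 was the lowest R135W animal for 5 of the 6 genes that rose, at a median ratio of 0.75. Over all 20 tested members of that list, the per-animal medians were level, at 0.35, 0.29 and 0.34 in R135W. These orders describe 6 animals and were not tested.

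**Figure D3:**
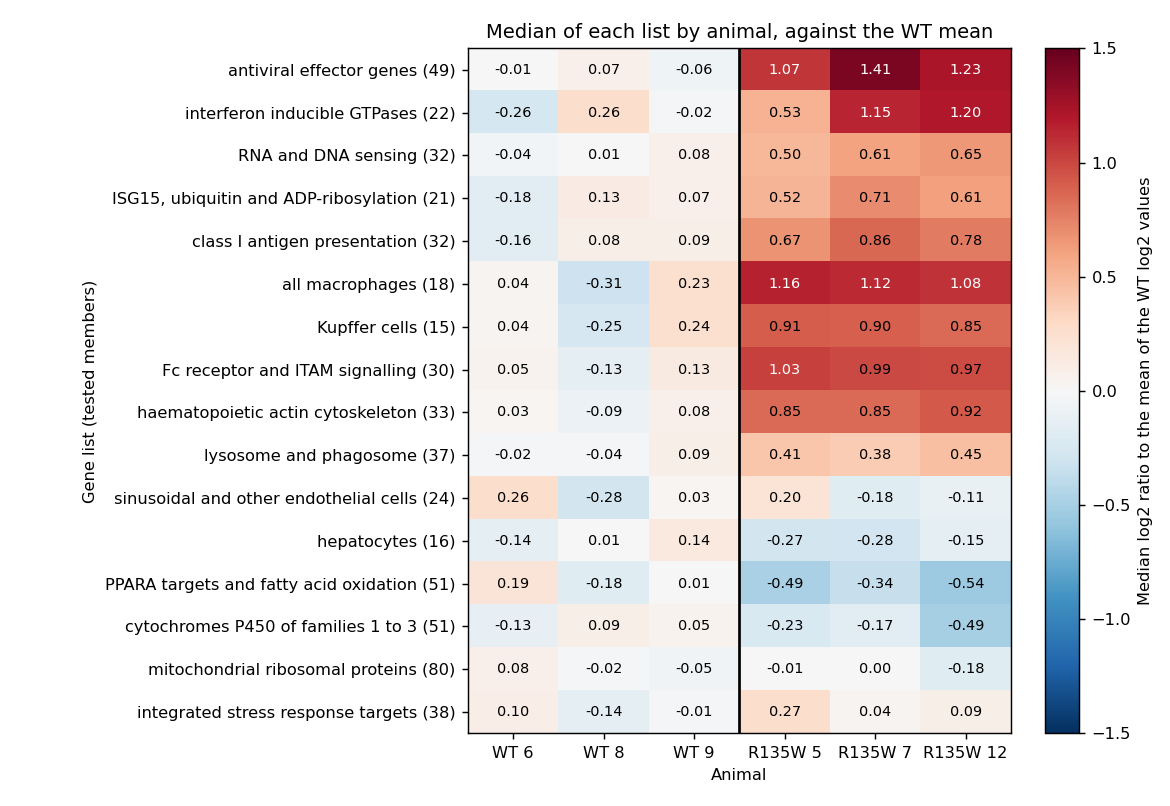
Heat map of the median log2 ratio of each list's tested genes in each animal against the WT mean, with a pseudocount of 0.25 CPM. Antiviral effectors and GTPases are lower in R135W 5 than in R135W 7 and R135W 12, at 1.07 against 1.41 and 1.23 and at 0.53 against 1.15 and 1.20, while the Fc receptor list is level across R135W animals at 1.03, 0.99 and 0.97.

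Of the genes that passed, 242 belonged to no list. Symbols that are a Gm number, a Rik, a LOC or a clone name were left aside. Of the rest, the 12 that rose with the smallest p and a level of at least 1 CPM were Ifi27l2b, Spats2l, Shisa5, Tlr2, Axl, Oas1c, Ly6e, Sgsm2, Dnah1, Selplg, Sdc3 and Rab36. Dnah1 stood at 0.239, 0.0994 and 0.121 CPM in WT and passed the count filter through R135W alone. Tlr2, the receptor for bacterial lipoproteins, stood at 2.20, 1.59 and 1.74 CPM in WT and 6.73, 5.66 and 5.74 CPM in R135W (log2 fold change 1.71, SE 0.20, adjusted p = 0.00671). Sdc3, a heparan sulphate proteoglycan, stood at 75.3, 53.1 and 77.1 CPM in WT and 143, 155 and 146 CPM in R135W and Selplg, the selectin ligand of leukocytes, rose by 1.24 (SE 0.16). Shisa5, a p53-inducible protein of the endoplasmic reticulum, rose by 1.17 (SE 0.13). Tlr2, Sdc3, Selplg, Shisa5 and Spats2l were steady. Chemokines rose for 3 of 26: Cxcl10, which draws activated T cells and is induced by interferon, stood at 2.35, 4.57 and 2.35 CPM in WT and 11.7, 13.7 and 13.9 CPM in R135W and was steady, Ccl2, which draws monocytes, rose by 2.03 (SE 0.34) and Ccl6 by 0.84 (SE 0.19). In the cell death list of 33, Il18bp, which neutralises interleukin 18, Mlkl, the pore of necroptosis, and Nlrp3, an inflammasome sensor, rose by 0.91, 1.03 and 1.5 beside Zbp1. Il18bp was steady. The call of Ccl6 held in 0 of the 6 fits without 1 library, that of Nlrp3 in 1, that of Ccl2 in 2 and that of Mlkl in 3. Ccl6 and Nlrp3 did not pass with age as a covariate, and Ccl6 did not pass with RLE factors. DNA replication and mitosis genes rose for 8 of 42 (median 0.54), at low levels. Mcm5, of the replicative helicase, stood at 2.11, 0.895 and 1.66 CPM in WT and 4.27, 6.58 and 7.27 CPM in R135W, and the 8 became 0 without WT 8 and at most 12 without another library. The count was 13 in DESeq2, 5 in limma-voom and 3 with age as a covariate.

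Genes lower in R135W were fewer and rested on more fragile calls, since 3 (without WT 9) to 78 genes were lower with 1 library left out. The steady one was Lipg, endothelial lipase, which cleaves lipids of high density lipoprotein, at 28.8, 25.4 and 29.8 CPM in WT and 14.4, 13 and 13.9 CPM in R135W (log2 fold change -1.02, SE 0.12, adjusted p = 0.00671). PPARA is the nuclear receptor that drives fatty acid use in fasting. Of 51 genes of its targets and of fatty acid oxidation 4 fell, 30 were lower at an unadjusted p under 0.05 and 46 had a negative log2 fold change (median -0.44). Ppara itself stood at 302, 329 and 374 CPM in WT and 189, 229 and 223 CPM in R135W (log2 fold change -0.65, SE 0.14, adjusted p = 0.0437). The genotypes did not overlap, but the call held in 0 of the 6 fits without 1 library. Acot4 and Acot3, which hydrolyse acyl-CoA, fell by 1.0 and 1.40 on the log2 scale and held in 4 and 2 of the 6. Cyp4a10, which oxidises fatty acids, had -1.0 (adjusted p = 0.0727) and Cpt1a, the gate of mitochondrial oxidation, -0.27. With 1 library left out 0 to 2 members of the list passed, and DESeq2 called 18 lower.

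Of the genes that follow, Pank1, St3gal5, Aldh3a2 and Rgs16 were chosen for their p or their CPM difference. Slc22a5 came from the list of hepatocyte transporters, where 1 rose and 2 fell of 55. Mttp and Lpl came from the list of lipid droplet and lipoprotein genes. Slc22a5, the carnitine transporter, stood at 60.2, 39.1 and 47.5 CPM in WT and 19.9, 23.3 and 26.3 CPM in R135W (log2 fold change -1.08, SE 0.18, adjusted p = 0.0182). Pank1, which starts coenzyme A synthesis, stood at 225, 287 and 283 CPM in WT and 159.8, 174 and 131 CPM in R135W (log2 fold change -0.77, SE 0.16, adjusted p = 0.0348), and Mttp, which loads lipid onto lipoproteins, fell by 0.54 on the log2 scale (SE 0.12). St3gal5, which makes the ganglioside GM3, stood at 298, 341 and 336 CPM in WT and 104, 165 and 167 CPM in R135W, with R135W 5 lowest. Aldh3a2, which oxidises fatty aldehydes, stood at 484, 488 and 455 CPM in WT and 331, 304 and 273 CPM in R135W. Rgs16, a brake on G protein signals that responds to fasting in liver, fell from 483, 729.7 and 513 CPM to 279, 208 and 122 CPM. Lpl, lipoprotein lipase, which adult hepatocytes make little of, rose from 14.6, 9.00 and 10.7 CPM to 24.9, 37.3 and 87.2 CPM, with R135W 12 far above the rest. The calls of Aldh3a2 and Mttp held in 0 of the 6 fits without 1 library, that of Pank1 in 1, that of Lpl in 2 and those of Slc22a5, St3gal5 and Rgs16 in 3. Of the fixed lists, cholesterol and lipid synthesis had 1 of 46 lower, and lipid droplet and lipoprotein genes 1 higher and 1 lower of 31.

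**Figure D4:**
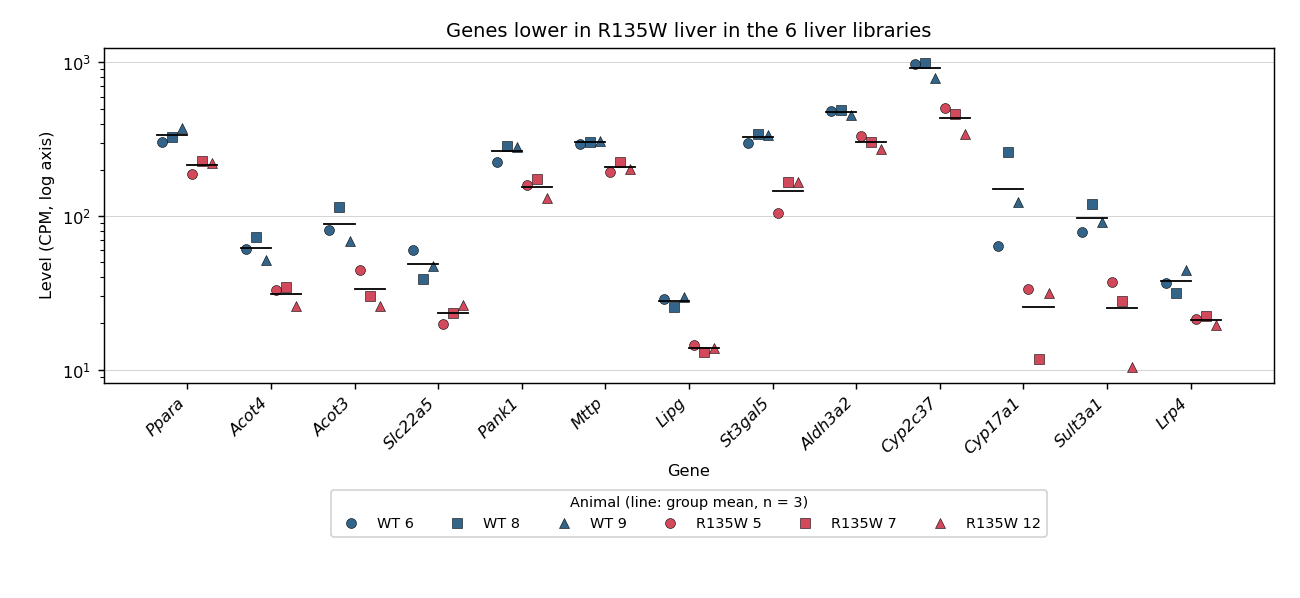
CPM on a log axis of 13 genes lower in R135W liver in each liver library, with a line at each group mean (n = 3). For every gene shown, each R135W animal lies below each WT animal, and the spread within a genotype is widest for Cyp17a1 and Sult3a1.

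Of 51 cytochromes P450 of families 1 to 3, 1 fell and 42 had a negative log2 fold change (median -0.33). DESeq2 called 9 lower and 1 higher, and 0 to 3 were lower with 1 library left out. The 1 was Cyp2c37, which oxidises arachidonic acid, at 979, 991 and 792 CPM in WT and 502, 465 and 343 CPM in R135W (log2 fold change -1.08, SE 0.18, adjusted p = 0.0197). Among 27 genes expressed more in female than in male liver 3 fell (median -0.71), which were Acot3, Sult3a1 and Cyp17a1. The count was 7 in DESeq2 and 0 to 7 with 1 library left out. The per-animal medians of the list overlapped between genotypes, at -0.52, 0.56 and -0.14 in WT and -0.26, -0.67 and -0.28 in R135W, with WT 8 apart from the other WT animals. Sult3a1, a sulphotransferase, stood at 79.0, 119.6 and 91.2 CPM in WT and 37.1, 28.0 and 10.3 CPM in R135W and Cyp17a1, of steroid synthesis, at 63.9, 261 and 123 CPM in WT and 33.4, 11.8 and 31.4 CPM in R135W, where the WT animals differed among themselves. The 24 male-biased genes had 0 past edgeR's test, DESeq2 and limma-voom, and 2 had p under 0.05 before adjustment. Cyp26a1, which degrades retinoic acid, fell from 32.4, 61.9 and 21.9 CPM to 10.1, 15.3 and 8.62 CPM. The calls of Cyp26a1 and Cyp17a1 held in 1 of the 6 fits without 1 library and that of Sult3a1 in 2. With age as a covariate Cyp26a1 and Sult3a1 did not pass, and in limma-voom Cyp26a1 did not.

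Clock genes vary through the day, and the labels give no hour of collection. Of 27 listed, Arntl and Npas2, of the positive limb, rose and Hlf, Tef and Bhlhe41 fell, and 0 to 1 and 0 to 7 passed in the 2 directions with 1 library left out. DESeq2 called 6 lower. Arntl stood at 8.52, 8.25 and 6.07 CPM in WT and 17.2, 17 and 25.8 CPM in R135W and Tef at 128, 188 and 218 CPM in WT and 80.3, 88.9 and 66.2 CPM in R135W. Dbp, an output gene of the same limb as Tef, was at 19.4, 61.7 and 91.3 CPM in WT and 12.6, 19.9 and 6.05 CPM in R135W and did not pass (adjusted p = 0.0815); WT 6 lay near R135W 7 there, below the other WT animals. Any part of collection time in the falls above was not tested. The E-box CACGTG, bound by the clock factors of the positive limb and by others, was searched because these genes moved. It was found in 21.5% of the 65 promoters of genes that fell (14 promoters of 12 genes), 4.65% of those of genes that rose, 9.53% of those of tested genes and 7.15% of all. The 12 genes included Tef, Bhlhe41, Acot4, Bnip3 and Hsd17b7. Capitals mark it in the 150 bases before the start sites of Tef, which has 2 entries, and Acot4.
Tef, chr15:81802523-81802672, plus strand: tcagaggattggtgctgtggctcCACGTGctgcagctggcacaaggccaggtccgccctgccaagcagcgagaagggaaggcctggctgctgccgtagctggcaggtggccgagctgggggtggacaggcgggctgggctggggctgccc
Tef, chr15:81811264-81811413, plus strand: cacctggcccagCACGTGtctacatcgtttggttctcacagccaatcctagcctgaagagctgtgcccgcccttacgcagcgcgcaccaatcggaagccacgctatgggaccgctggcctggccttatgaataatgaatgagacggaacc
Acot4, chr12:84038229-84038378, plus strand: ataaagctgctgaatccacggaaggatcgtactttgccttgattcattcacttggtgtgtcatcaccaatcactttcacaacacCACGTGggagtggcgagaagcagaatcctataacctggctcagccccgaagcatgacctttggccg

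Lists close to the function of Mars2 did not move past the test. Mitochondrial tRNA synthetases and translation factors had 0 of 41 past it, and also 0 before adjustment (median 0.05). Mitochondrial ribosomal proteins had 0 of 80, 3 at the unadjusted threshold and 58 negative (median -0.08), and nuclear-encoded respiratory chain subunits 0 of 77, 9 and 63 (median -0.10). DESeq2 and limma-voom called 0 in these 3 lists. Targets of the integrated stress response, which mitochondrial faults can switch on, had 0 of 38 past edgeR's test and limma-voom (median 0.12). Before adjustment 11 had p under 0.05 in edgeR, 8 of them higher and 3 lower, and DESeq2 called 2 lower. With 1 library left out 0 to 2 members were higher and 0 to 1 lower. Psat1, of serine synthesis, stood at 0.527, 0.497 and 0.445 CPM in WT and 1.36, 0.968 and 1.13 CPM in R135W (adjusted p = 0.061) and Nupr1 at 2.01, 1.14 and 0.891 CPM in WT and 14.9, 5.08 and 2.17 CPM in R135W (adjusted p = 0.0969), with R135W 5 highest for both. Psat1 and Nupr1 did pass when all 12 libraries shared one spread, and Nupr1 also in 1 of the 6 fits without 1 library. The circulating signals Fgf21 and Gdf15 had -0.44 and 0.53, with overlap. Genes of the unfolded protein response of the endoplasmic reticulum had 0 of 25 past edgeR's test and limma-voom, 2 lower in DESeq2, 3 before adjustment and 23 negative (median -0.21). Bnip3, a receptor for mitochondrial clearance, fell from 199.9, 283 and 241 CPM to 139.8, 138 and 148 CPM. It was the 1 gene called of 32 in a list of mitochondrial stress and quality control. Its call held in 1 of the 6 fits without 1 library and not with age as a covariate.

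The genotype effect in liver was set against that in gastrocnemius of the same animals, where 75 genes were higher and 46 lower in R135W of 13826 tested. The difference of the effects passed for 20 of 15414 genes (0.13%), 15 higher and 5 lower in liver, and 16 of the 457 liver genes were among them. Of the 356 genes called in liver that could be tested in muscle, 36 were called in the same direction there. Ifi27 had a difference of 1.80 (SE 0.11, adjusted p = 1.01e-05), with a liver effect of 1.91 and a muscle effect of 0.11. In muscle it averaged 19.1 CPM for WT and 20.7 CPM for R135W. Its neighbour Ifi27l2a moved in both tissues, by 1.70 and 0.72, a difference of 0.98 (SE 0.14, adjusted p = 0.0138). Ifitm3 rose in both too, by 0.76 and 0.76. So did Irf7, by 2.51 in liver and 2.56 in muscle, Ifit3, by 2.32 and 1.71, and Bst2, by 1.26 and 1.32. Apol9b rose by 1.18 in liver and by 2.42 in muscle. The difference between tissues passed for none of Ifitm3, Irf7, Ifit3, Bst2 and Apol9b. Sirpa, Axl and Hmox1 differed by 1.15 (SE 0.14, adjusted p = 0.00503), 1.19 (SE 0.15, adjusted p = 0.00703) and 1.13 (SE 0.16, adjusted p = 0.0184), with muscle effects of 0.03, -0.09 and -0.04. The mean of Axl in WT was 31.3 CPM in muscle and 24.4 CPM in liver. The lower genes Mtss1, which shapes membranes, and Lrp4, a receptor of Wnt and agrin signals, differed by -1.23 (SE 0.20, adjusted p = 0.0274) and -1.07 (SE 0.16, adjusted p = 0.0274). With animal number as a block, Fermt3, Ifi27l2a and Lrp4 lost the call (adjusted p = 0.0887, 0.0608 and 0.0674), and of the 9 genes plotted Ifi27 alone passed in all 6 fits without 1 animal.

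**Figure D5:**
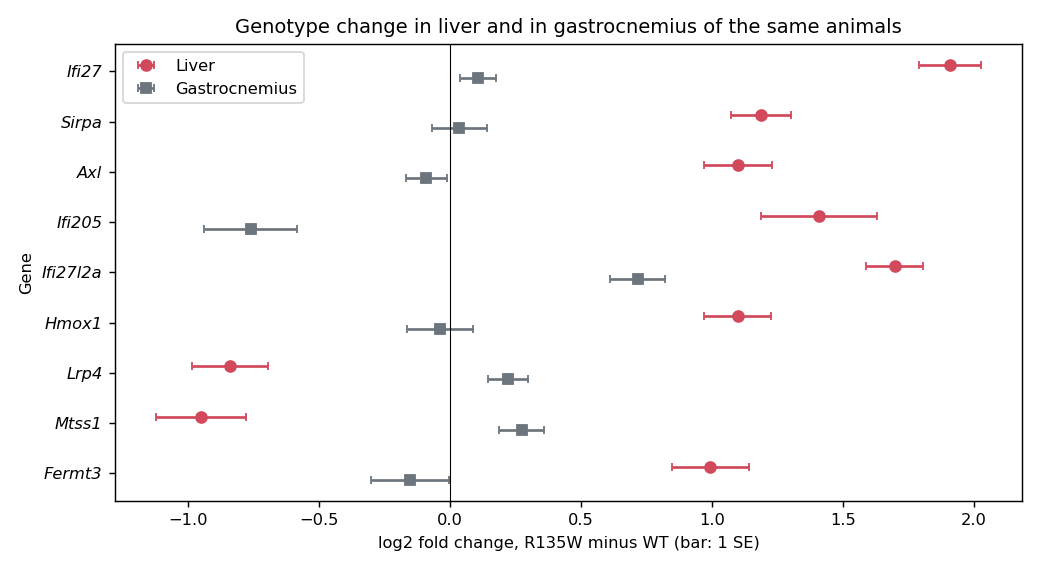
Log2 fold change of R135W minus WT in liver and in gastrocnemius for 9 genes, with bars of 1 SE (n = 3 per group in each tissue). Ifi27 lies at 1.91 in liver and 0.11 in muscle, and Ifi27l2a is above 0 in both.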

How the data were processed

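Poly(A) RNA of 6 liver and 6 gastrocnemius samples was sequenced as 100 nt read pairs. Per the submitters' processing notes and the file headers, the authors aligned reads with STAR 2.4.0 to mm10 (GRCm38) and counted read pairs per gene with featureCounts 1.5.2, without strand and with pairs that overlap several genes counted for each. The deposited values are raw counts per gene. Without strand, overlapping and antisense genes share fragments.

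The liver comparison used edgeR 4.0.16 (R 4.3.3) on the 6 liver libraries: TMM factors, filterByExpr by genotype, the quasi-likelihood F test and Benjamini-Hochberg adjustment over all tested genes at 0.05. Some named genes are not reported here. The SE is the absolute log2 fold change over the square root of F. The difference between tissues was a contrast of the 12 libraries in 4 groups. Alternatives used DESeq2 1.42.0, limma 3.58.1 (voom), RLE factors, other filters, age as a covariate and each library left out. The scripts were tested on simulated data. Promoter sequences came from RefSeq (GRCm38.p6).

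Liver and muscle of one animal share a number in the titles and so pair the tissues; deviations from group means correlated by 0.0034 to 0.069 between them. WT and R135W livers share no numbers. Replicate libraries differed by more than counting noise (chi-squared per degree of freedom 41.7 to 118). The labels number animals but do not describe litters, so p-values measure the spread between these samples. The gene lists and comparisons were chosen with earlier results of these data known. Named genes were Mars2, up to 6 genes per list by p (2 where a list had none past the test), and, per direction, the 12 of smallest p outside the lists and the 10 of largest CPM difference, with at least 1 CPM in a group; others named were chosen after their values were seen.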

Additional observations from a re-analysis of the deposited data

Results flagged for a closer look

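For the 9 genes below the genotype effect differed between liver and gastrocnemius by the test of the difference itself (edgeR, 12 libraries, n = 3 per group). The liver effect was higher by 1.80 on the log2 scale for Ifi27, by 2.16 for Ifi205, by 1.19 for Axl, by 1.15 for Sirpa, by 1.14 for Fermt3, by 1.13 for Hmox1 and by 0.98 for Ifi27l2a. For Lrp4 and Mtss1 the differences were -1.07 and -1.23. Ifi205, a DNA-binding protein induced by interferon, had opposite signs, 1.41 in liver and -0.76 in muscle, where it did not pass (adjusted p = 0.11). Fermt3, an integrin activator of blood cells, had 0.99 and -0.15. In limma-voom Fermt3, Hmox1, Lrp4 and Mtss1 did not pass (adjusted p = 0.131, 0.0946, 0.0506 and 0.0595). Syk and Slc7a8 also passed in edgeR, with differences of 1.22 and 2.28.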

How the results depend on the processing

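The count of 457 liver calls was 781 in DESeq2 (244 lower), 274 with age as a covariate (243 higher, 31 lower), 1057 when all 12 libraries shared one spread (763 higher, 294 lower) and 263 with a minimum change of 2-fold (235 and 28). It was 444 with RLE factors, 400 in limma-voom, 532 with no filter and 464 with a stricter one. With 1 library left out it ranged from 84 to 285, higher genes from 81 to 242 and lower genes from 3 to 78. No call shared between a setting and the reported fit was in the opposite direction. For the 154 named genes that passed, 509 of 924 values with 1 library left out stayed past the threshold and 0 turned direction; in the other settings 1176 of 1231 did and 0 turned. With 1 library left out the log2 fold change of Mars2 ran from -0.12 to 0.28 (-0.037 without WT 6, -0.12 without R135W 12) and that of Lars2 from -0.40, without R135W 7, to 0.86. The setting without Rn45s and Lars2 was chosen after seeing the data. With the animal number as a replicate block the difference between tissues passed for 16 genes, 3 of them lower; other calls it changed are given in the report. It passed for 171 genes in DESeq2 (100 higher, 71 lower), for 7 in limma-voom (7 higher and 0 lower, with 626 lower at an unadjusted p under 0.05, against 708 in edgeR and 781 in DESeq2), and for 1 to 7 with 1 animal left out (1 to 6 higher, 0 to 2 lower). No paired analysis was possible within liver because WT and R135W share no animal numbers. The cause of these changes was not tested. With 3 animals per group, small changes were not detectable.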

Other observations

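Gene families looked at after their values were seen gave further counts. Of 12 Toll-like receptors 6 rose (Tlr1, Tlr2, Tlr6, Tlr7, Tlr9 and Tlr13), with Tlr9, a sensor of unmethylated DNA, at 0.239, 0.199 and 0.324 CPM in WT and 0.946, 1.40 and 1.41 CPM in R135W. Among tested members, Ms4a genes rose for 4 of 9, Schlafen genes for 4 of 7, Slamf genes for 3 of 8 and Ly6 genes for 4 of 5. With untested members these families had 16, 10, 9 and 15 genes. Leukocyte receptors of the Lilr and Pir families rose for 7 of 9 tested, of which the Pira genes share exons and are uncertain. Of the 4 pantothenate kinases, Pank1 and Pank3 fell and the other two had negative values without passing. Slc7a8, an amino acid transporter, had 1.24 in liver and -1.04 in muscle, passing in each (adjusted p = 0.0119 and 0.0289), with a difference of 2.28 (SE 0.26).

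Saa1, an acute phase protein, was at 16.5, 20.3 and 16.2 CPM in WT and 31.5, 258 and 24.8 CPM in R135W. R135W 7, the library with the highest Rn45s, was far above the others, and the gene did not pass (adjusted p = 0.146). Hdc, which makes histamine, was at 58.5, 9.50 and 20.9 CPM in WT and 17.6, 11.6 and 14.7 CPM in R135W, with WT 6 highest.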
